A study of Mus musculus with 4 samples.

Results

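The genes described here activate fatty acids and break them down by beta-oxidation. They were taken by symbol from a fixed list of 34 genes, and 30 of the 34 had a probe set named for them among the 19505 genes tested. Acsl1, Acsl3, Etfb and Ppard were not analysed here. Each of the 30 had a single probe set. The data are 2 Affymetrix arrays of mouse T cells grown in a Tc1 cytokine condition and 2 of cells grown in a Tc9 cytokine condition, with no genotype or further agent named in the labels. The sources used here do not give the mouse strain and age, the cytokines, the culture time or the origin of the cells. Nor do they say whether the 2 arrays of a group stand for separate cultures or mice, so the p-values measure a spread that may be technical. CD8 T cells that produce interferon gamma are usually called Tc1, and those that produce interleukin 9 are called Tc9. The study asked which genes differ between these cells.

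A fatty acid is first joined to coenzyme A by a synthetase. Its acyl group is carried into the mitochondrion on carnitine and is then shortened in repeated rounds of dehydrogenation, hydration, a further dehydrogenation and thiolysis. The electrons pass through the flavoprotein ETF to the respiratory chain, very long chains are first cut in peroxisomes, and the nuclear receptors of the PPAR family switch on many of the genes. In T cells, this pathway is best known from memory and regulatory cells, while freshly activated effector cells are known for glycolysis.

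By limma over all genes, 0 of the 30 genes passed an adjusted p of 0.05, against 0.564% of all genes tested. The background was 0.385% for genes higher in Tc9 and 0.179% for genes lower. The smallest adjusted p was 0.450, that of Cpt1a. At an unadjusted p under 0.05 stood 3 genes, or 10% of the 30 against 5.28% of all genes: Cpt1a, higher in Tc9 (background 2.94%), and Acadl and Acsl6, lower (background 2.34%). Absolute log2 changes went up to 0.58, and 18 of the 30 were under 0.25. The median log2 change of the 30 was 0.08, beside -0.00273 over all genes, with 18 above 0 and 12 below. Within the arrays numbered 1 that median was 0.0584 and within those numbered 2 it was 0.0334, beside 0.00151 and -0.00908 over all genes. Without the Tc1 array numbered 2 the median of the 30 was -0.0014, and without the Tc9 array numbered 1 it was 0.0355. Leaving out 1 array unbalances the numbers between the groups, so a difference between the numbers enters these 2 medians. The median was thus small and above 0 within both numbers, and whether the list as a whole has a direction was not tested.

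Values are given as quantile normalized intensity, in the order Tc1 number 1, Tc1 number 2, Tc9 number 1 and Tc9 number 2. Changes are Tc9 minus Tc1 on the scale log2(value + 16), which understates those of dim genes, with the SE or the 95% interval of the limma fit. The arrays numbered 1 and those numbered 2 differed in the median of the deposited intensities (37.1 and 37.9 against 57.3 and 57.1) and in the digits written (a median of 10 against 7). Each number was therefore taken as a batch holding 1 array of each group. The main fit leaves the number out, so a difference between the numbers adds to its spread and can hide a change that was alike within both. It gives the SE, the 95% interval and the unadjusted p, and also the adjusted p where no other setting is named. Changes are also given within each number and from a second fit with the number as a block. That block fit has 1 residual degree of freedom and infinite prior ones. Its p-values rest on a spread shared by genes of like intensity and do not measure the spread of a single gene. Batch and replicate number coincide and cannot be told apart. Of the 30 genes, 21 exceeded each array's 95th percentile of negative control probe sets, here called the negative controls, on all 4 arrays, and 8 exceeded it on none (Acsl6, Cpt1b, Cpt1c, Crat, Decr1, Ehhadh, Ppara and Ppargc1a). Acox3 did so on 1 array of each group. The size of a change is uncertain in a gene below that level.

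The CD8 T cell genes Cd8a, Cd8b1, Cd3d, Cd3e, Cd3g and Cd247 lay above the negative controls on all 4 arrays. The Tc1 genes Gzmb and Ifng were lower in the Tc9 group. Il9 measured 23.4 and 26.5 in Tc1 against 103 and 81.9 in Tc9 (limma adjusted p = 0.0682), below the negative controls on every array. Of the other Tc9 genes, Irf4 changed by 0.18, and Spi1 and Il9r, with 0.26 and 0.28, were also below the negative controls (limma adjusted p = 0.999855 for each). Of 19 measured markers of other blood cells (erythroid cells, platelets, mast cells, basophils, NK, myeloid, B and CD4 T cells), 18 were below the negative controls on all 4 arrays, and Cd79b exceeded them on 1. Their summed intensity was 750 and 831 in Tc1 against 844 and 851 in Tc9. In RNA from a whole culture, a smaller share of cells with a transcript and less of it per cell cannot be told apart.

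**Figure D1:**
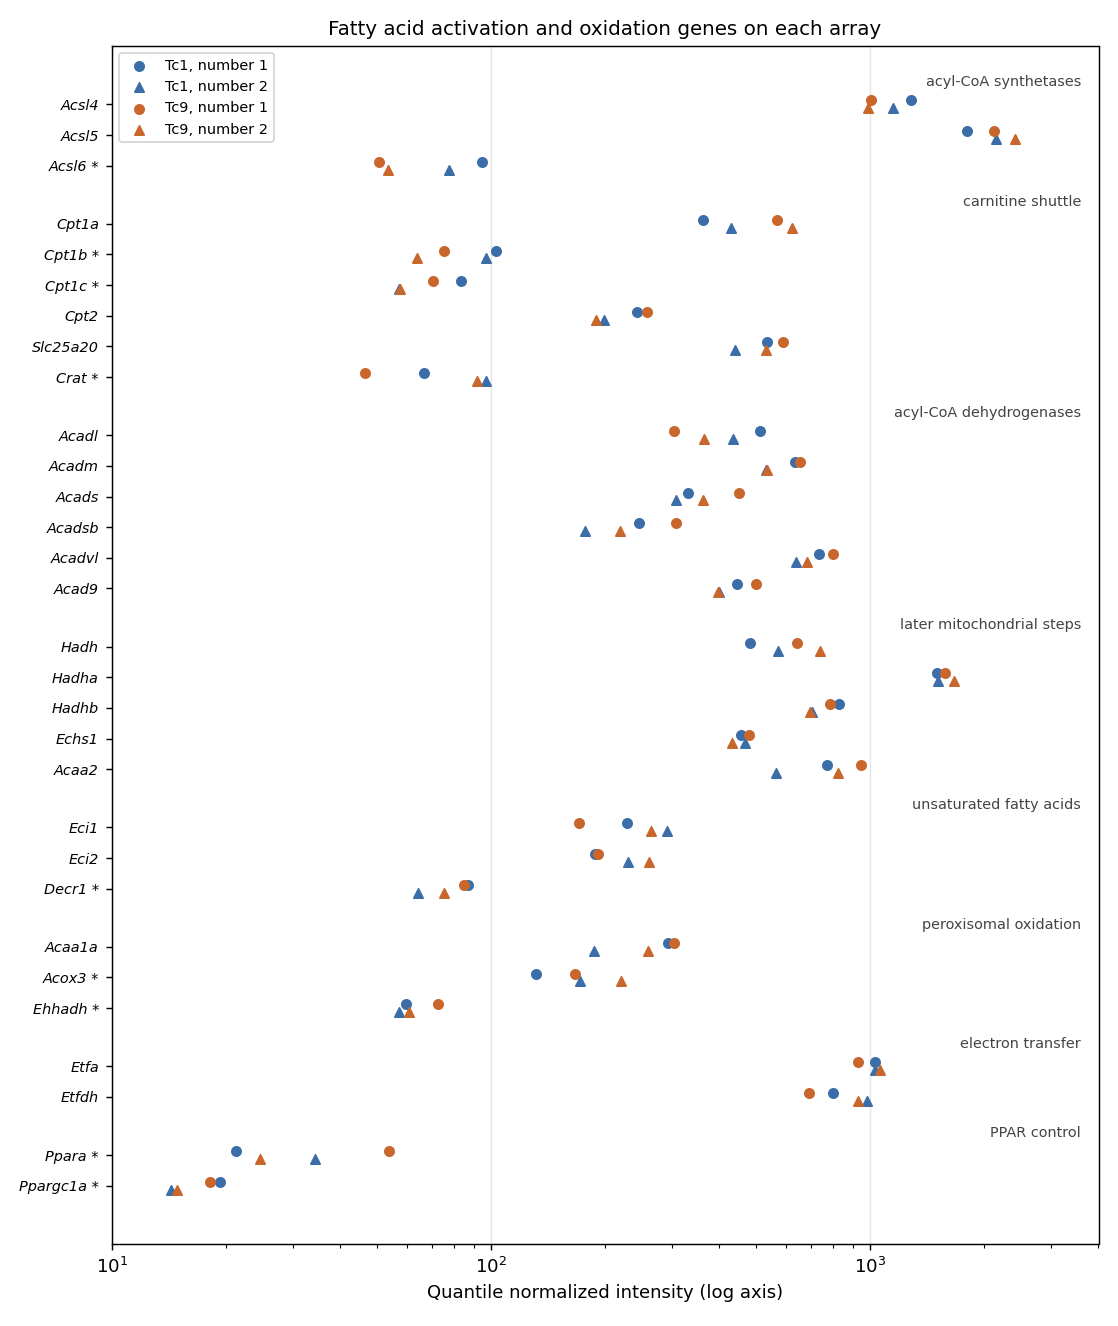
Quantile normalized intensity (log axis) of the 30 genes on each of the 4 arrays, grouped by role; colour gives the group (Tc1, Tc9), circles the arrays numbered 1 and triangles those numbered 2. An asterisk marks the 9 genes that did not exceed the negative controls on all 4 arrays; Cpt1a has both Tc9 arrays (568 and 623) above both Tc1 arrays (363 and 429), whereas most genes have groups that overlap.

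Among the acyl-CoA synthetases, which commit a long-chain fatty acid to metabolism, Acsl4 and Acsl6 lay lower on both Tc9 arrays. Acsl4, whose enzyme prefers arachidonic acid and other polyunsaturated chains, measured 1281 and 1149 in Tc1 against 1004 and 990 in Tc9. The groups did not overlap, and the change was -0.28 ± 0.13 (SE, n = 2 per group; limma unadjusted p = 0.0755), with -0.35 and -0.21 within the numbers and adjusted p = 0.00139 with the block. Acsl5, a synthetase of the outer mitochondrial membrane and the endoplasmic reticulum, measured 1803, 2141, 2125 and 2407. Its Tc9 array numbered 1 lay below the Tc1 array numbered 2, and the change was 0.20 ± 0.14 (0.24 and 0.17 within the numbers; limma adjusted p = 0.00535 with the block).

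Acsl6, best known from brain and red blood cell precursors, measured 94.8 and 77.3 in Tc1 against 50.8 and 53.6 in Tc9. Both Tc9 values lay below both Tc1 values, and the change was -0.58 ± 0.24 (limma unadjusted p = 0.0478, adjusted p = 0.928, with the block 0.00768). It was -0.73 and -0.42 within the numbers. None of the 4 values exceeded the negative controls' 95th percentile, and the 95% interval ran from -1.15 to -0.0073.

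To show what sequence surrounds the starts of the genes that stood apart, promoter windows (250 bases before to 50 after the annotated start, RefSeq, GRCm38.p6) were searched on both strands. The motifs were AGGTCA, the half-site of nuclear receptors, a direct repeat of AGGTCA with any 1 base between, the form bound by PPAR with RXR, and TCAAGGTCA, the extended half-site of the receptor ERR alpha, which contains AGGTCA. A window was found for 25 of the 30 genes, 27 windows in all. AGGTCA was in 6 of the 27 (Acadm, Acadvl, Acsl6, Cpt1a, Cpt1c and Echs1), or 22.2%, against 16.3% of all 32851 windows. Neither share says that a factor binds. The direct repeat was in 0 of the 27 and in 13 of all windows, and TCAAGGTCA was in 1 of the 27 and in 139 of all. That 1 window belongs to Acsl6, which has 3 windows, and reads as follows, 5′ to 3′ on the strand of the gene, with the matches to AGGTCA and TCAAGGTCA (here both on the opposite strand) in capitals. It lies at chr11:54303574-54303873 on the + strand.
Acsl6: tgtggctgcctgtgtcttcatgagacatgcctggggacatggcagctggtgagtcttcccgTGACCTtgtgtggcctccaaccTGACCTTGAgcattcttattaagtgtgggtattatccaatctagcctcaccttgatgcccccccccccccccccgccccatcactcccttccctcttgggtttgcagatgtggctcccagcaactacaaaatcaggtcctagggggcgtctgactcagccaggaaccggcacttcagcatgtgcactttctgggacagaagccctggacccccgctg
The capitals begin 189 and 167 bases before the start.

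The carnitine shuttle held the gene with the smallest p of the 30, Cpt1a. Its enzyme, carnitine palmitoyltransferase 1A, moves the acyl group from coenzyme A to carnitine at the outer mitochondrial membrane and is the step that malonyl-CoA inhibits. Cpt1a measured 363 and 429 in Tc1 against 568 and 623 in Tc9. Both Tc9 arrays lay above both Tc1 arrays, by 0.57 ± 0.17 on the log2 scale or 1.49-fold (limma unadjusted p = 0.0110, adjusted p = 0.450, 95% interval 0.18 to 0.97). Within the numbers the change was 0.62 and 0.52, and from the deposited values without normalization between arrays 0.60 and 0.52. With the block the adjusted p was 6.85e-08. The Cpt1a window, shown because this gene had the smallest p, lies at chr19:3323051-3323350 on the + strand and holds 1 match to AGGTCA, on the opposite strand and in capitals, 94 bases before the start.
Cpt1a: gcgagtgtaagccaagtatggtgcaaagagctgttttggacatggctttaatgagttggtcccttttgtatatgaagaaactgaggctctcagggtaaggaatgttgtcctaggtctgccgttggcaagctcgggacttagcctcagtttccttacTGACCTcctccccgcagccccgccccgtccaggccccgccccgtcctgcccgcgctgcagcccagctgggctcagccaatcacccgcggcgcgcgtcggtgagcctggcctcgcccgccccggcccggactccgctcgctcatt

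Cpt1b, the isoform of muscle, measured 103 and 96.8 in Tc1 against 75.2 and 63.8 in Tc9. Its groups did not overlap, with a change of -0.44 ± 0.24 (-0.39 and -0.50 within the numbers; limma unadjusted p = 0.106, adjusted p = 0.0581 with the block). Cpt1c, the isoform of neurons, measured 83.2, 57.2, 70.2 and 57.5, with overlapping groups. Its change was -0.10 (-0.20 and 0.0043 within the numbers), or 0.13 without the Tc1 array numbered 1 and 0.0167 without the Tc9 array numbered 2. On no array did Cpt1b or Cpt1c exceed the negative controls' 95th percentile, so Cpt1a was the one isoform of the 3 with a signal above it. Whether Cpt1a and Cpt1b differ in their response was not tested.

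The partners of Cpt1a along the shuttle showed smaller differences. Slc25a20, the carrier that exchanges acylcarnitine for carnitine across the inner membrane, measured 533, 441, 590.5 and 533, a change of 0.20 with a 95% interval from -0.20 to 0.60. Cpt2, which returns the acyl group to coenzyme A in the matrix, measured 242, 198, 258 and 189. Its change was 0.00995, with a 95% interval from -0.53 to 0.55, and its sign differed between the numbers (0.08 and -0.06). Crat, the acetyltransferase of carnitine, measured 66.5, 96.9, 46.6 and 92.0, below the negative controls throughout, and its arrays numbered 2 lay above those numbered 1 in both groups.

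**Figure D2:**
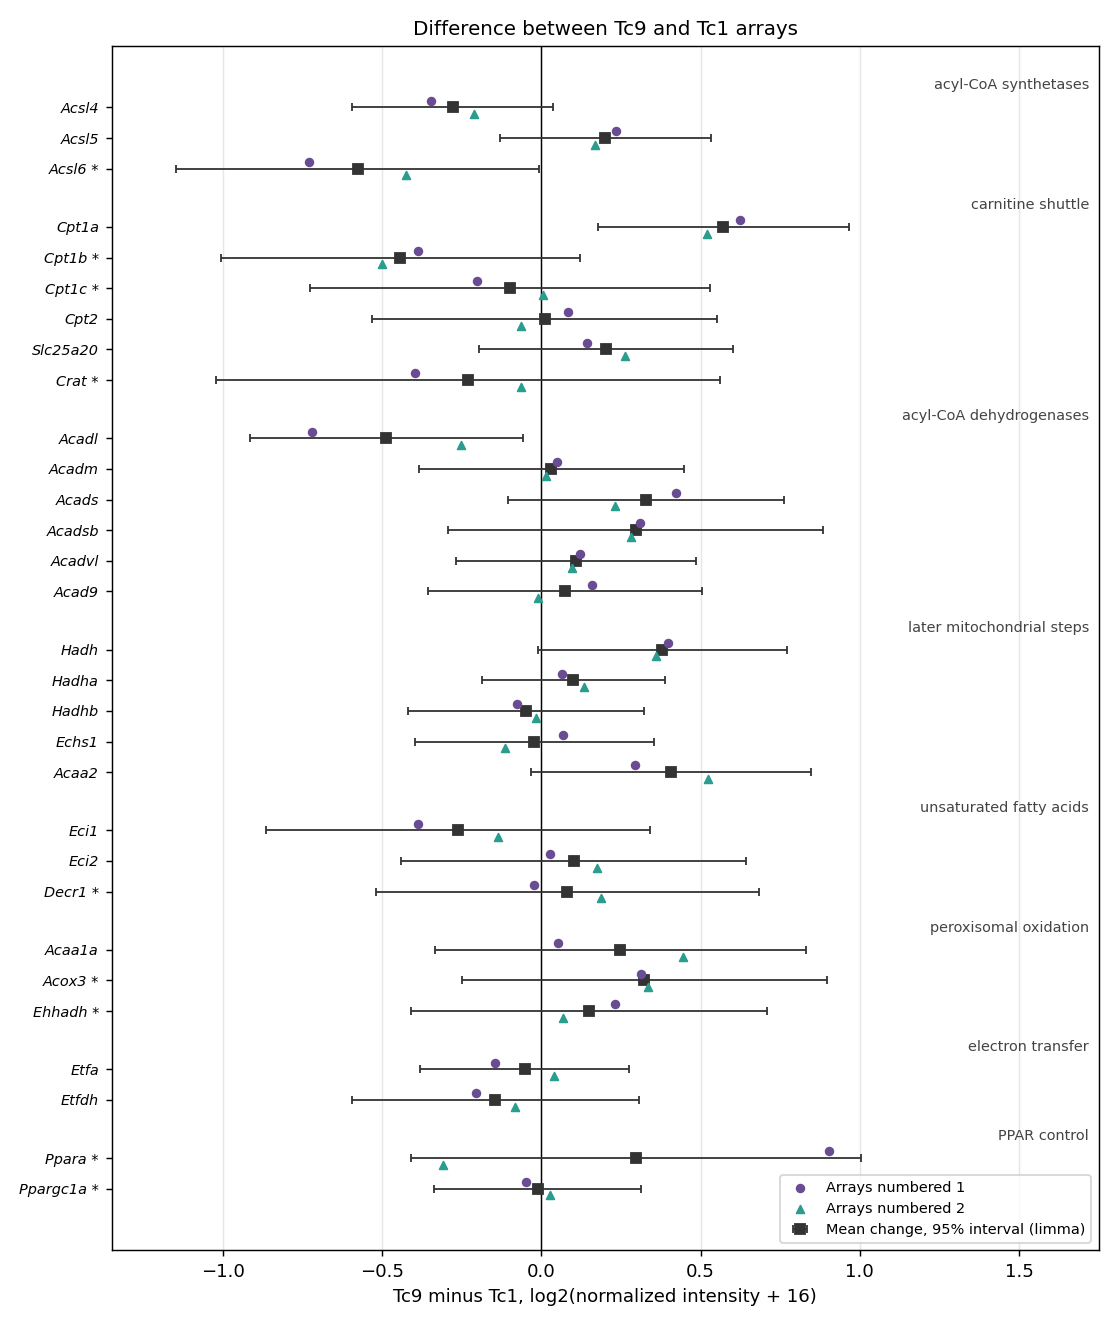
Change of each of the 30 genes as Tc9 minus Tc1 on the log2(normalized intensity + 16) scale; squares with bars are the limma mean and its 95% interval, circles and triangles the change within the arrays numbered 1 and 2, and asterisks as in the plot of intensities. The intervals of 3 genes leave out 0 (Cpt1a at 0.57, Acadl at -0.49, Acsl6 at -0.58), and those of 26 genes lie within a 2-fold change either way.

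The acyl-CoA dehydrogenases open each round of beta-oxidation and differ in the chain length they prefer. Acadl, the long-chain enzyme, measured 513 and 436 in Tc1 against 305 and 364 in Tc9. Both Tc9 values lay below both Tc1 values, by -0.49 ± 0.18 (limma unadjusted p = 0.0316, adjusted p = 0.774, with the block 4.27e-05), and the change was larger within the arrays numbered 1 (-0.72) than within those numbered 2 (-0.25). The 95% interval ran from -0.92 to -0.06. Its window, shown because the gene lay lower in Tc9 at an unadjusted p under 0.05, is at chr1:66863260-66863559 on the - strand and held no match to the motifs searched, so it carries no capitals.
Acadl: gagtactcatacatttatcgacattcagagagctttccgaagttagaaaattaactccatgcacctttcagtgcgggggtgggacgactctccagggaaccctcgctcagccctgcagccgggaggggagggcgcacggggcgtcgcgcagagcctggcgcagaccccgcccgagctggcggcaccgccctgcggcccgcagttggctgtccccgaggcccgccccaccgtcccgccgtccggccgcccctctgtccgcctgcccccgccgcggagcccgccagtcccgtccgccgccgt

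The other 5 dehydrogenases had changes from 0.03 to 0.33. Without the Tc9 array numbered 1, the changes of Acadm (-0.11), Acadvl (-0.0031) and Acad9 (-0.0885) were below 0. So was that of Acadm without the Tc1 array numbered 2 (-0.0913) and that of Acad9 within number 2 (-0.0108). Within the numbers, the changes of Acadm (0.05 and 0.01) and Acadvl (0.12 and 0.10) were above 0. Acads, the short-chain enzyme, measured 331 and 307 in Tc1 against 450 and 363 in Tc9. Its groups did not overlap, with a change of 0.33 ± 0.18 (0.42 and 0.23 within the numbers; limma unadjusted p = 0.117, adjusted p = 0.0180 with the block). Acadsb, the enzyme for short branched chains, measured 245, 177, 308 and 219, a change of 0.30 that was alike within the numbers (0.31 and 0.28) but smaller than the gap between them, so that the groups overlapped. Acadvl, the very-long-chain enzyme of the inner membrane, measured 733, 638, 799 and 683. Acadm, the medium-chain enzyme, measured 632, 530, 654 and 535, and its change of 0.03 had a 95% interval from -0.38 to 0.45. Acad9, which also serves the assembly of respiratory complex I, measured 446, 400.0, 499 and 397. Whether Acadl differs from the other 5 was not tested.

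Of the 5 genes for the later mitochondrial steps, Hadh and Acaa2 lay higher in Tc9, and so by little did Hadha, with groups that did not overlap. Hadh, the dehydrogenase for medium and short hydroxyacyl chains, measured 483 and 572 in Tc1 against 642 and 739 in Tc9. The change was 0.38 ± 0.17 and nearly equal within the numbers (0.40 and 0.36; limma unadjusted p = 0.0556, adjusted p = 0.000295 with the block). Acaa2, the mitochondrial thiolase that releases acetyl-CoA, measured 769 and 566 in Tc1 against 946 and 820.3 in Tc9, a change of 0.41 ± 0.19 (0.29 and 0.52 within the numbers; limma unadjusted p = 0.0649, adjusted p = 1.27e-05 with the block). Echs1, the short-chain hydratase, measured 456, 468, 479 and 432, with overlapping groups and a change of -0.0219.

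Hadha and Hadhb encode the alpha and beta chains of the mitochondrial trifunctional protein, which carries out the last 3 reactions on long chains. Hadha measured 1502, 1514, 1571 and 1664, a change of 0.0997 with a 95% interval from -0.19 to 0.39. Hadhb measured 830, 705, 786 and 696, a change of -0.0474 with an interval from -0.42 to 0.32. Neither change came near the test's threshold, and both intervals leave out a change of 1.5-fold in either direction. In the RefSeq table the 2 genes start 273 bases apart on opposite strands and run away from each other. Their windows share 228 bases, chr5:30155003-30155230, printed on the + strand of Hadhb because 1 stretch of sequence precedes both genes. It holds no match to the motifs.
Hadhb and Hadha: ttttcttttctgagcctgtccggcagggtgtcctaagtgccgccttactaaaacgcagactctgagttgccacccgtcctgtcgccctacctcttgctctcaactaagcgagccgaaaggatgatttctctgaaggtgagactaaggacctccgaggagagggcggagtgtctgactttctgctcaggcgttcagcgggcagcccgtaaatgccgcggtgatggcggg

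The enzymes that prepare unsaturated chains had overlapping groups in each case. Eci1, an isomerase that shifts double bonds, measured 229, 292, 171 and 264, with a change of -0.26 ± 0.26 (-0.39 and -0.14 within the numbers). Eci2, a second isomerase found in mitochondria and peroxisomes, measured 188, 230.0, 192 and 262. Its change was 0.10 (0.03 and 0.18 within the numbers). The signs of Eci1 and Eci2 both turned when 1 array was left out, which unbalances the numbers between the groups. Decr1, the dienoyl-CoA reductase, measured 86.8, 64.1, 85.1 and 75.1, below the negative controls on all arrays.

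All 3 peroxisomal genes had changes above 0 within both numbers, and none reached an unadjusted p under 0.05. Acox3, an oxidase that opens peroxisomal oxidation of branched chains, measured 131, 172, 167 and 221, a change of 0.32 ± 0.24 (0.31 and 0.33 within the numbers). Acaa1a, a peroxisomal thiolase, measured 293, 187, 304 and 260, a change of 0.25 ± 0.25 that was 0.05 and 0.44 within the numbers. Ehhadh, the peroxisomal enzyme that joins hydratase and hydroxyacyl dehydrogenase activity, measured 59.6 and 57.4 in Tc1 against 72.7 and 60.9 in Tc9, below the negative controls on every array.

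The electron carriers Etfa and Etfdh had overlapping groups. Etfa, the alpha chain of ETF, measured 1031, 1030.3, 930 and 1061, a change of -0.0526 with a 95% interval from -0.38 to 0.27. Etfdh, which hands the electrons of ETF to ubiquinone, measured 799, 982, 690.0 and 927, where the arrays numbered 1 were the lower in both groups. The change of Etfdh was -0.14 (-0.21 and -0.08 within the numbers), with a 95% interval from -0.59 to 0.31. Ppara, the PPAR of liver and other tissues with high fatty acid use, measured 21.3, 34.4, 53.7 and 24.6. Its change was 0.90 within the arrays numbered 1 and -0.31 within those numbered 2, at intensities below the negative controls. Ppargc1a, the coactivator PGC-1 alpha, measured between 14.3 and 19.3, also below the negative controls, so the data give no measured level for either regulator.

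Both Tc9 arrays lay above both Tc1 arrays for 6 of the 30 genes (Cpt1a, Acads, Hadh, Hadha, Acaa2 and Ehhadh), or 20% against 14.0% of all genes. They lay below for 4 (Acsl4, Acsl6, Cpt1b and Acadl), or 13.3% against 15.1%, where 29.1% of all genes had groups apart in either direction. The change had the same sign within both numbers for 14 genes above 0 and 8 below, where it did so for 5864 and 6232 of the 19505 genes. With the number as a block, 5 genes passed an adjusted p of 0.05 above 0 (Acsl5, Cpt1a, Acads, Hadh and Acaa2) and 3 below (Acsl4, Acsl6 and Acadl), where the background was 6.34% and 7.37% of all genes. Together the 8 are 26.7% of the 30, against 13.7% of all genes. More of the listed genes exceeded the negative controls on all arrays (21 of 30) than of all genes (6354 of 19505). Among the 21, 7 passed with the block, or 33.3%, against 29.0% of the 6354. By the unadjusted p, 9.52% of the 21 stood against 9.58% of the 6354, and by groups that do not overlap 33.3% against 37.4%. Among genes above the negative controls the listed genes therefore stood near the background. The block fit has 1 residual degree of freedom and gives genes of like intensity the same spread.

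**Figure D3:**
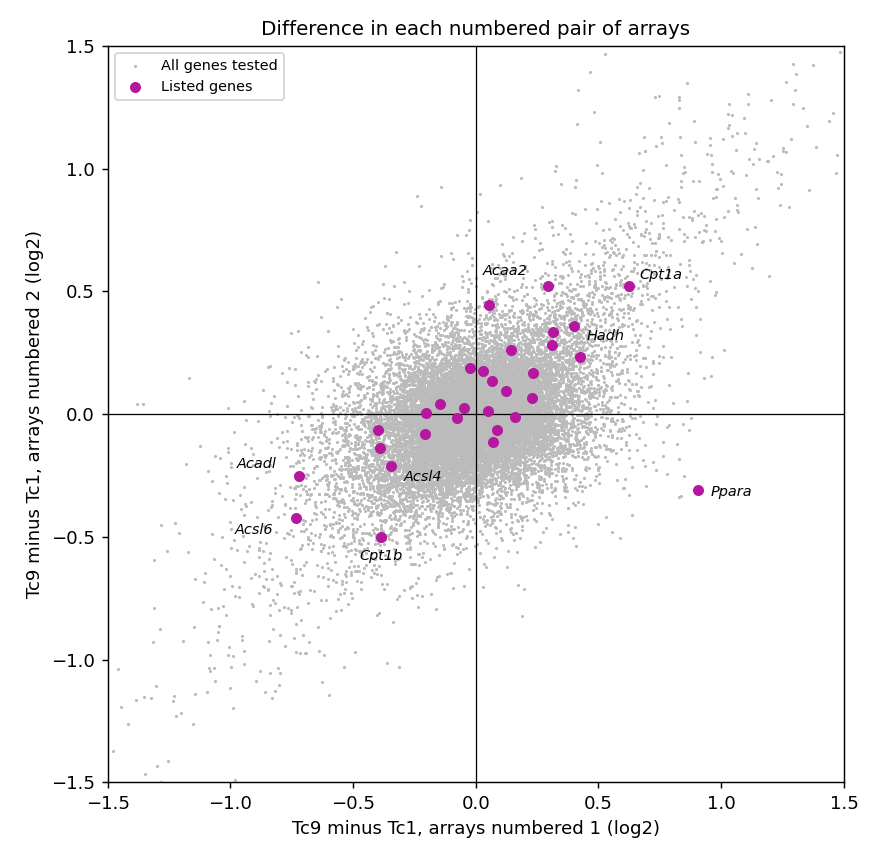
Change within the arrays numbered 1 (horizontal) and within those numbered 2 (vertical), both as Tc9 minus Tc1 in log2(normalized intensity + 16); grey points are the genes tested, of which 115 fall outside the axes, and coloured points the 30 listed genes. Cpt1a lies at 0.62 and 0.52 and Acadl at -0.72 and -0.25, while Ppara lies at 0.90 and -0.31.

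Around these 30 genes, 163 others of fatty acid uptake, storage, oxidation and their control were listed, and 154 were measured. By limma 0 of the 154 passed over all genes, and at an unadjusted p under 0.05 there were 8 above 0 and 3 below, or 7.14% against 5.28% of all genes. With the block 16 passed above 0 and 12 below, or 18.2% of the 154 against 13.7% of all genes. At an unadjusted p under 0.05, the 35 measured genes of the PPAR partner and target list held 4 above 0 and 0 below, the 27 of uptake and other synthetases 2 and 0, and the 21 other peroxisomal genes 2 and 0. The 33 other mitochondrial genes, the 12 lipase and lipid droplet genes and the 13 of malonyl-CoA and its brake each held 0 above and 1 below, and the 13 thioesterases 0.

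Acss1, the mitochondrial synthetase that activates acetate, measured 495 and 483 in Tc1 against 903 and 987 in Tc9. The groups lay far apart beside their spread, with a change of 0.93 ± 0.14 (0.85 and 1.01 within the numbers), and the limma adjusted p was 0.0547. With a filter at the negative controls the limma adjusted p was 0.0468. It was 0.120 without the intensity trend, 0.591 with median centring and 0.999997 with the values as deposited. The change was 0.87 to 0.99 when 1 array was left out. With the block its adjusted p was 9.98e-26.

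Pdk2, a kinase that inhibits pyruvate dehydrogenase, measured 129 and 141 in Tc1 against 289 and 261 in Tc9. Its change was 0.94 ± 0.20 (limma adjusted p = 0.169, with the block 5.46e-11), with both Tc1 arrays below the negative controls. Foxo1 encodes a forkhead factor of resting T cells, and its intensities were 409, 503, 922 and 1102. The change of Foxo1 was 1.12, and 0.97 to 1.27 when 1 array was left out. By limma its adjusted p was 0.0527 in the main fit and 9.36e-38 in the block fit. A pseudocount of 1 gave 0.0489 and the filter at the negative controls 0.0497. Robust eBayes gave 0.0680, no intensity trend 0.142, median centring 0.562 and the values as deposited 0.999997. Slc27a1, a fatty acid transport protein, measured 31.1, 50.2, 76.9 and 77.3, below the negative controls throughout (limma adjusted p = 0.698, with the block 0.000245). Each of these 3 genes had both Tc9 values above both Tc1 values. Ncoa3, a nuclear receptor coactivator, measured 268, 301, 432 and 468 (adjusted p = 0.353 by limma, 8.09e-08 with the block). Txnip, an inhibitor of thioredoxin and of glucose uptake, measured 689, 594, 972 and 859 (adjusted p = 0.50 by limma, 2.07e-08 with the block). Cat, the peroxisomal catalase that removes the hydrogen peroxide made by acyl-CoA oxidases, measured 1945, 2330.1, 2579 and 3064, a change of 0.40 ± 0.15 (limma adjusted p = 0.751, with the block 1.79e-11).

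Below both Tc1 values on both Tc9 arrays lay Plin2, Mid1ip1 and Echdc1. Plin2, the coat protein of lipid droplets, measured 197 and 241 in Tc1 against 84.2 and 109 in Tc9. Its change was -1.06 ± 0.24 (-1.09 and -1.04 within the numbers), and -1.22 to -0.90 when 1 array was left out. The limma adjusted p of Plin2 was 0.208, or 2.41e-11 with the block, 0.555 with median centring and 0.999997 with the values as deposited. Mid1ip1, which promotes the activity of acetyl-CoA carboxylase and thereby the supply of malonyl-CoA, measured 239, 207, 135 and 121, a change of -0.73 ± 0.21 (limma adjusted p = 0.441, with the block 4.87e-06). Neither Plin2 nor Mid1ip1 exceeded the negative controls' 95th percentile on a Tc9 array. Echdc1, an ethylmalonyl-CoA decarboxylase, measured 602, 640.3, 400.2 and 466, a change of -0.51 ± 0.16 (limma adjusted p = 0.539, with the block 1.40e-06).

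**Figure D4:**
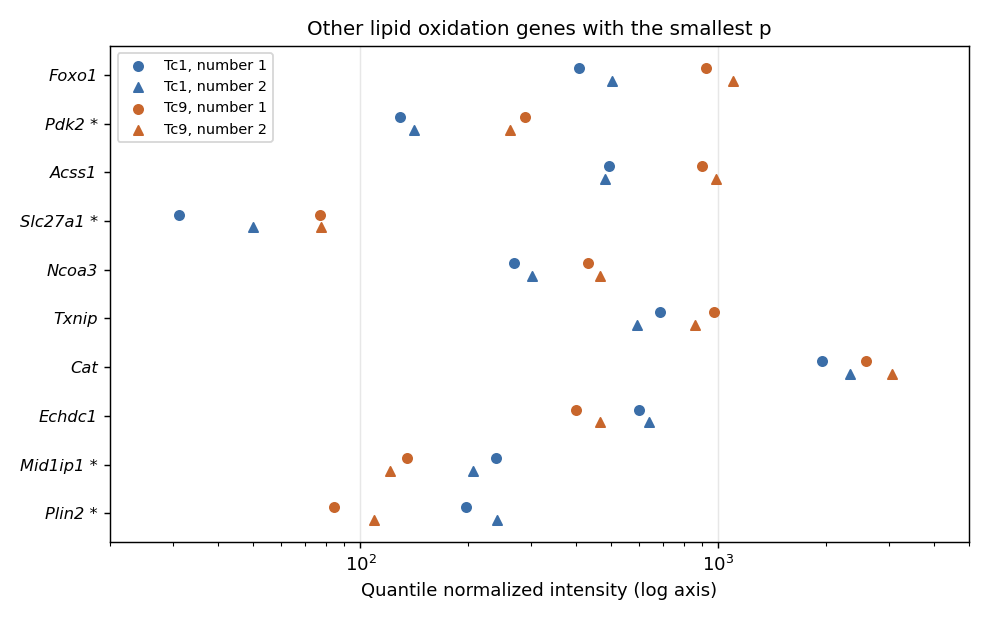
Quantile normalized intensity (log axis) on each of the 4 arrays of the 10 genes with the smallest p among the 154 measured genes of the surrounding lists, ordered by their change; colours and symbols as in the plot of the 30 genes, and an asterisk marks genes that did not exceed the negative controls on all 4 arrays. In 7 genes both Tc9 arrays lie above both Tc1 arrays, and in Echdc1, Mid1ip1 and Plin2 below.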

How the data were processed

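The authors deposited a linear intensity per array for 28846 probe sets on 4 arrays. How it was background corrected and summarized is not stated in the sources used here. Controls (6640 probe sets, 5222 of them negative) were left out. The other 22206 were quantile normalized, 16 was added and log2 taken. The platform annotation names 19572 of them by a single symbol, and the probe set with the highest mean stood for each of 19505 genes. Groups and numbers came from the sample titles. Tc9 was compared with Tc1 by limma 3.58.1 under R 4.3.3, with a moderated variance that follows intensity (eBayes, trend on). The fit had 2 residual and 5.08 prior degrees of freedom, with Benjamini-Hochberg adjustment over all genes and a threshold of 0.05. It was also run on simulated data with the same spread for every gene and no batch, which tests neither the intensity trend nor the batch. Each array's background is the 95th percentile of its negative controls, on the deposited scale. The number of arrays limits the precision.

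The members, lists and tests were chosen with earlier results of these data known. The rule for printing values on all arrays took genes by unadjusted p, or by groups that do not overlap with a log2 change of at least 0.5; they are given here for nearly all 30. From the surrounding lists, the 10 genes with the smallest p are named. The 9 genes of those lists without a named probe set were not analysed here. The alternatives were the values as deposited, median centring, a pseudocount of 1, no intensity trend, robust eBayes, filters at the 25th percentile and at the negative controls, the replicate number as a block, the lowest-mean probe set, and leaving out each array.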

Additional observations from a re-analysis of the deposited data

How the results depend on the processing

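No listed gene was called under any alternative except the replicate block, in which 8 were. The count over all genes (110) became 16 with the values as deposited, 52 with median centring, 56 without the intensity trend and 2674 with the replicate block, and 184 to 278 when 1 array was left out. For the surrounding lists, 1 gene was called with a pseudocount of 1, 2 with the filter at the negative controls, 28 with the replicate block and 1 to 3 when 1 array was left out. The median change of the listed genes was 0.0422 with median centring, 0.101 with the filter at the negative controls (22 genes left) and -0.0014 to 0.126 when 1 array was left out. For 1 array left out, which leaves that group's lone array assumed to vary like the other group, the sign turned for 16 genes: Ppargc1a (-0.12 to 0.10), Cpt2 (-0.20 to 0.22), Cpt1c (-0.31 to 0.13), Hadhb (-0.16 to 0.0688), Eci2 (-0.10 to 0.32), Crat (-0.60 to 0.17), Acadm (-0.11 to 0.18), Acadvl (-0.0031 to 0.22), Acad9 (-0.0885 to 0.23), Eci1 (-0.54 to 0.0304), Etfa (-0.15 to 0.0407), Etfdh (-0.35 to 0.0665), Ppara (-0.10 to 0.66), Decr1 (-0.10 to 0.27), Acaa1a (-0.0533 to 0.56) and Echs1 (-0.10 to 0.0503). Otherwise it turned for Ppargc1a as deposited (0.00683) and Cpt2 with median centring (-0.00395). With 1 array left out, 1 group holds both numbers and the other a single number, so a difference between the numbers enters the change. Of the 16 genes, Hadhb, Eci1, Eci2, Crat, Acadm, Acadvl, Etfdh and Acaa1a had the same sign within both numbers. For the other 8 the sign differed between the numbers. The causes of the turned signs were not tested. The other 14 listed genes kept their sign under every alternative run, with Cpt1a at 0.46 to 0.68 (limma adjusted p 0.25 or more outside the block), Acadl at -0.61 to -0.37 and Acsl6 at -0.70 to -0.47. Leaving out 1 array moved the other changes by over 1.5 times from the value on all arrays for Acaa2 (0.19 to 0.62), Acads (0.18 to 0.48), Acadsb (0.0670 to 0.52), Acox3 (0.14 to 0.52), Acsl5 (0.0808 to 0.34), Slc25a20 (0.0692 to 0.33), Ehhadh (0.0476 to 0.24) and Hadha (0.0618 to 0.14). From that value it moved less for Hadh (0.26 to 0.50), Acsl4 (-0.35 to -0.20) and Cpt1b (-0.56 to -0.33). Over all genes, deviations from the group mean correlated with r = 0.729 between the arrays sharing a number. With 2 arrays per group, this says only that the numbers differed alike in both groups. Whether arrays sharing a number share a culture, a mouse or only a batch was not tested.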
